A study of Mus musculus with 2 samples.

Results

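Macrophages with much C1q and little Arg1 RNA made up 149 of the 19839 cell barcodes in 2 single-cell RNA libraries from mouse tumours. The mock library held 94 among 10833 barcodes and the PTIR1 library 55 among 9006. They were chosen by their own counts of unique molecular identifiers (UMIs, 1 per captured transcript). A barcode had to have at least 200 genes, at most 10% mitochondrial UMIs and at least 2000 UMIs, and at least 2 UMIs of Csf1r and Adgre1 together. It had to have no UMI of Cd3e or Ncr1. The 3 C1q genes had to hold at least 0.2% of its UMIs, Arg1 under 0.05%, and the interferon-induced genes Rsad2, Ifit1, Ifit2 and Ifit3 together under 0.1%. These barcodes are called C1q-high macrophages below.

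The libraries came from CT26 tumours in BALB/c mice, an inbred laboratory strain. CT26 is a transplantable mouse colon carcinoma line. The mock genotype was compared with tumours that expressed PTIR1, an immunoproteasome suppressor according to the series title. Each genotype had 1 library, made with version 3.1 of the 10x 3' kit, so no test between the genotypes was possible and every interval below is a 95% interval for counting error only. The labels name the source as infiltrating lymphocytes, but 3510 of the 10602 barcodes past the gene, mitochondrial and UMI limits met the Csf1r, Adgre1, Cd3e and Ncr1 criteria. The number, age and sex of the mice, any pooling of tumours and any cell sorting were not stated in the labels. No row carried the symbol PTIR1, so the genotype labels could not be checked against the counts. The 2 libraries held 95166611 and 98540561 UMIs, with medians of 2357 and 4933 per barcode, and shared 30 barcode sequences, of which 0 were C1q-high macrophages.

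C1q, built from the products of C1qa, C1qb and C1qc, starts the classical complement pathway and also coats dying cells for uptake. Macrophages are its main source in most tissues, and C1q-rich macrophages are a common population of tumours, often with MHC class II and receptors for apoptotic cells. Arg1, the enzyme that splits arginine, marks other tumour macrophages. Interferon gamma, made by T and NK cells, induces in macrophages the chemokine Cxcl9, MHC class II through the co-activator Ciita, and the immunoproteasome, a form of the proteasome whose catalytic subunits favour peptides that MHC class I can present.

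The 3 C1q genes lie side by side on the minus strand of chromosome 4 (mm10, GENCODE vM21), C1qb at 136880129 to 136886187, C1qc at 136889804 to 136893065 and C1qa at 136895917 to 136898803. All 3 were detected in all 149 C1q-high macrophages, as the rule nearly required. In the mock barcodes C1qa ranged from 7.31 to 125 UMIs per 10000, with a median of 54.7. In the PTIR1 barcodes it ranged from 6.0 to 100.3, with a median of 38.7, so the libraries overlapped over most of the range. The summed level was 5430.3 counts per 1000000 UMIs (CPM) in mock and 4086.3 in PTIR1 barcodes for C1qa, and the PTIR1 level was 0.762 times the mock level for C1qb and 0.771 times for C1qc. These genes chose the barcodes, so the values are a description. The receptor Csf1r, which macrophages need to survive, was at 397 and 393 CPM and the surface marker Adgre1 (F4/80) at 238 and 175.

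Most macrophage-lineage barcodes had no C1q RNA. Of the barcodes that met the Csf1r, Adgre1, Cd3e and Ncr1 criteria, 1195 of 2051 in the mock and 965 of 1459 in the PTIR1 library had 0 C1q UMIs, while 140 and 90 reached 0.2%. Of those, 38 and 33 were set apart by Arg1 and 8 and 2 by the interferon genes. The nearest mock barcode below the C1q limit was at 0.155% and the nearest above at 0.201%; the PTIR1 ones were at 0.179% and 0.20%. Among barcodes below the Arg1 and interferon limits, to which these values refer, none lay within 10% below the C1q limit in either library. For Arg1, 2 barcodes in each library lay within 10% below the limit of 0.05%, the nearest at 0.0491% and 0.0497%, and the nearest above were at 0.0512% and 0.0603%. For the interferon genes the highest values inside were 0.0728% and 0.0999%, and the nearest outside 0.143% and 0.878%.

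**Figure D1:**
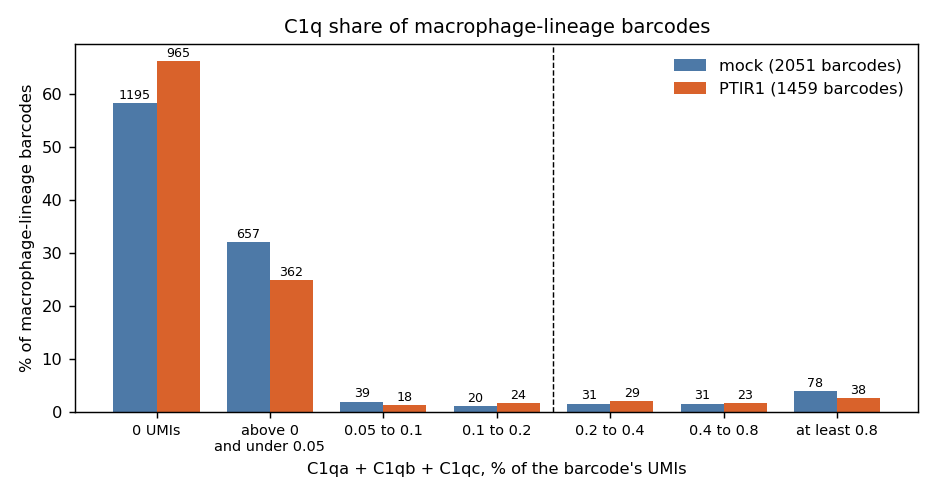
Bars give the share of macrophage-lineage barcodes (y axis, %) by the share of their UMIs from the 3 C1q genes (x axis, %), with the number of barcodes above each bar, blue for mock and orange for PTIR1. The dashed line marks 0.2%, and the bars to its right also hold the barcodes set apart by Arg1 or the interferon genes: 39 mock and 18 PTIR1 barcodes lie from 0.05% to 0.1%, 20 and 24 from 0.1% to 0.2%, and 31 and 29 from 0.2% to 0.4%.

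All 8 macrophage markers outside the rule were detected in each library. Lyz2 was found in all 149 barcodes and Cd68 in 91 of 94 mock and 53 of 55 PTIR1 barcodes, but Mertk in 17 and 13. The 8 markers were together at 22917 CPM in the mock and 17943 in the PTIR1 barcodes, with Lyz2 alone at 14359 and 10889. The monocyte list, with Ly6c2, Ccr2 and Vcan among its 6 genes, was detected too, at 1617 and 1421 CPM. At a depth of 2000 UMIs per barcode, drawn at random, a C1qa UMI was found in 98.9% (94.2 to 99.97, exact binomial interval) of mock and 100% (93.5 to 100) of PTIR1 C1q-high macrophages. B cells, which do not make C1q, gave the background of free RNA at the same depth, 5.54% of 361 mock and 4.49% of 735 PTIR1 barcodes. Being chosen without UMIs of Csf1r or Adgre1, the B cells may give too low a background, here and below. Their median depth before drawing was 4412 and 4611 UMIs, against 21174 and 18869 in the C1q-high macrophages.

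RNA of other cell types was present at low level, for several lists mostly in a few barcodes. Neutrophil markers were at 261 CPM in the mock and 862 in the PTIR1 barcodes, with all 6 detected and 37.1% of the PTIR1 UMIs in 1 barcode. Fibroblast markers were at 4.70 and 162 CPM, with 66.7% of the PTIR1 UMIs in 1 barcode, and Col3a1, Lum and Pdgfra at 0 in the mock and Lum at 0 in the PTIR1 barcodes. B cell markers were at 30.1 and 93.3 CPM, with 54.7% and 43.1% of the UMIs in 1 barcode. CT26 markers were at 7.05 and 43.9 CPM, with Krt8 and Krt18 at 0 in the mock barcodes and Krt7 at 0 in the PTIR1 barcodes. Mast cell markers went the other way, at 27.3 and 7.32 CPM, with Mcpt8 at 0 in the PTIR1 barcodes. T cell markers were at 28.2 and 35.7 CPM, NK cell markers at 59.7 and 55.8, endothelial markers at 31.5 and 32.9 and red cell markers at 2.35 and 5.49. Conventional dendritic cell markers were at 23.5 and 11 CPM, with Zbtb46 at 0 in the PTIR1 barcodes, and the plasmacytoid list was at 493 and 587, with Bst2, which macrophages also express, among its 4 genes. Neutrophil, fibroblast, B cell and CT26 markers were thus more than 3-fold higher in the PTIR1 barcodes. Leaving out barcodes with 5 UMIs of a lymphoid, neutrophil, mast, plasmacytoid, fibroblast or CT26 list kept 74 mock and 38 PTIR1 barcodes. Bst2 was not counted for this.

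The C1q-high macrophages were a slightly smaller part of the macrophage pool with PTIR1, within counting error. They were 4.58% (3.72 to 5.58, exact binomial interval) of 2051 mock and 3.77% (2.85 to 4.88) of 1459 PTIR1 macrophage-lineage barcodes, a ratio of 0.823 (0.579 to 1.16). The share of all barcodes past the limits was 1.85% (1.5 to 2.26) and 0.994% (0.750 to 1.29), a ratio of 0.536 (0.377 to 0.756). The second ratio also holds the numbers of all other cells in each library, and a difference in how cells were taken from the tumours cannot be told apart from one in the tumours. Within the C1q-high macrophages, 62.8% of mock and 52.7% of PTIR1 barcodes had a C1q share of at least 0.8%.

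The comparison with the rest of the macrophage pool was made inside each library, so each contrast was read once in the mock and once in the PTIR1 library. The pool was split by the same measures into an Arg1-high gate (759 mock and 683 PTIR1 barcodes), an interferon-stimulated gate (183 and 123) and a gate low in both C1q and Arg1 (1015 and 598). Because the gates were cut on measured values, the differences are a description. Cell division genes stood out: of 20 measured genes of that list, 17 were more than 2-fold higher than in the Arg1-high gate in both libraries and 0 were lower, where 2.82% of 9193 measured genes were higher and 2.87% lower. The median ratio of the list was 2.01 on the log2 scale in mock and 2.94 in PTIR1 barcodes. Over the gate low in both it was 1.87 and 2.40, with 16 of 20 genes past 2-fold (2.76% of 9138 genes), and over the interferon-stimulated gate 3.59 and 3.53, with 15 of 16 measured genes past 2-fold (4.15% of 5982 genes). Type I interferon genes outside the rule were lower than in that last gate, 17 of 19 past 2-fold in both libraries where 6.5% of genes were, as its cut on such genes fixed.

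Mki67, a nuclear protein of dividing cells, was at 141 CPM in the mock and 132 in the PTIR1 C1q-high macrophages. It was detected in 34 of 94 and 20 of 55 barcodes, so most barcodes of either library had none. At 2000 UMIs per barcode, at least 3 UMIs of the cell division list were found in 29.8% (20.8 to 40.1) of mock and 34.6% (22.2 to 48.6) of PTIR1 C1q-high macrophages. In the other gates that share ran from 4.37% to 7.86%, and in B cells it was 17.2% and 21.2%. Hmmr, a spindle-associated protein, was at 48.9 and 54.0 CPM against 2.52 and 4.53 in the Arg1-high gate. Ccnb2, a mitotic cyclin, was at 53.6 and 55.8 against 5.42 and 6.36. Their UMIs were not from 1 barcode: the highest held 20.2% and 16.7% of the mock UMIs of Hmmr and Ccnb2.

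The other genes ranked first over the Arg1-high gate included receptors, enzymes and secreted proteins. Siglec1, the sialic acid receptor CD169, was at 72.4 CPM in the mock and 69.5 in the PTIR1 C1q-high macrophages, against 7.2 and 7.24 in the Arg1-high gate. Cd72, an inhibitory C-type lectin, was at 227 and 184 against 17.6 and 18.1. The order was thus the same in both libraries. Gas6, a bridging ligand between dying cells and the receptors Axl and Mertk, was at 34.3 and 64.1 CPM against 4.01 and 3.26. Hpgds, a prostaglandin D synthase, was at 43.7 and 43.9 against 5.19 and 3.10, and Fcrls, a receptor-like protein known from microglia, at 35.3 and 124 against 4.01 and 7.95. Gas6, Hpgds, Fcrls and Siglec1 also ranked among the first 10 over the gate low in both, where Gas6 was at 0.425 and 0.889 CPM.

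Hypoxia genes and some chemokines were lower. Of 12 measured hypoxia genes 9 were more than 2-fold lower than in the Arg1-high gate in both libraries, with a list median of -2.15 and -2.08. Hilpda, a lipid droplet protein induced by low oxygen, was at 43.3 and 76.9 CPM against 460.1 and 768. Egln3, an oxygen sensor, was at 3.76 and 2.75 CPM against 61.4 and 52.6. Ppbp, a platelet-type chemokine precursor, was at 1.88 and 4.58 CPM against 113 and 289.9. Cxcl5, which attracts neutrophils, had 0 UMIs in all 149 barcodes, against 170 UMIs in mock and 905 in PTIR1 barcodes of the Arg1-high gate. A count of 0 allows up to 1.41 and 2.75 CPM (3 UMIs per library), so Cxcl5 was at least 8.94-fold and 26.2-fold lower by that floor, which leaves out the counting error of the Arg1-high gate. The exact interval of the ratio, which holds it, reached up to 0.139 and 0.0470. Monocyte markers were lower than in the gate low in both, with medians of -1.24 and -1.25 and 3 of 6 genes past 2-fold in both libraries (3.17% of genes were lower). Dcstamp, needed for macrophage fusion, had 0 UMIs in the C1q-high macrophages against 89 and 147 in the gate low in both.

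**Figure D2:**
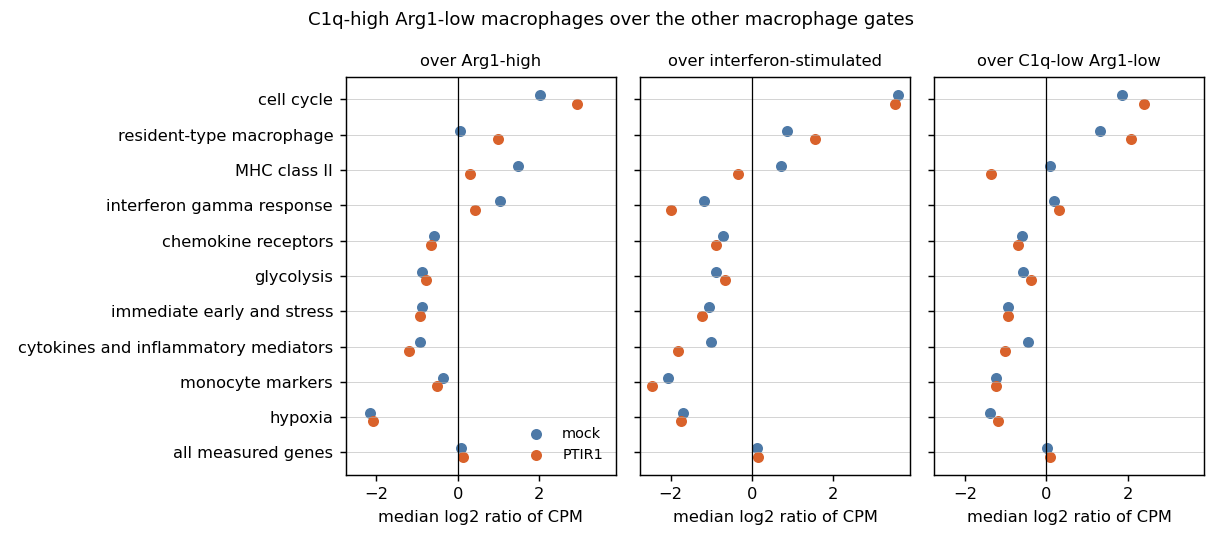
Each point is the median log2 ratio of CPM (x axis) of the measured genes of a list (y axis) in C1q-high macrophages over another macrophage gate, blue for mock and orange for PTIR1, with 1 panel per gate. The cell cycle medians lie from 1.87 to 3.59 and the hypoxia medians from -2.15 to -1.18, while MHC class II lies at 0.11 in mock and -1.36 in PTIR1 barcodes over the gate low in both.

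Inside the C1q-high macrophages, MHC class II and the interferon gamma response had the lowest medians of PTIR1 over mock among the 27 lists. Of 6337 genes with at least 50 UMIs over both libraries and outside the rule, 438 (6.91%) were more than 1.5-fold higher with PTIR1 and 420 (6.63%) more than 1.5-fold lower. At 2-fold these were 110 (1.74%) and 114 (1.8%), and the median of all genes was 0.02 on the log2 scale. Of the 9 measured MHC class II genes 8 were past 1.5-fold lower and 0 higher, with a list median of -1.79. Of 18 measured interferon gamma response genes 17 were past 1.5-fold lower and 0 higher, with a list median of -1.52.

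Promoters of these genes are shown because the genes were lower together. The sequences are RefSeq's for build GRCm38.p6 and run 5′ to 3′ on the gene's strand, 300 bases each. For the interferon gamma genes, capitals mark matches to TTCNNNGAA (the GAS type, the interferon gamma element) and to GAAA, any 2 bases, then GAAA (the ISRE type, read by IRF factors), sought on both strands. For the MHC class II genes, capitals mark CCAAT on either strand, the letters of the Y box that NF-Y binds beside the elements through which Ciita acts. Gbp5 lies at chr3:142496684-142496983 on the plus strand, Irf1 at chr11:53769764-53770063 plus, H2-Eb1 at chr17:34305617-34305916 plus and H2-Aa at chr17:34287774-34288073 minus.
Gbp5: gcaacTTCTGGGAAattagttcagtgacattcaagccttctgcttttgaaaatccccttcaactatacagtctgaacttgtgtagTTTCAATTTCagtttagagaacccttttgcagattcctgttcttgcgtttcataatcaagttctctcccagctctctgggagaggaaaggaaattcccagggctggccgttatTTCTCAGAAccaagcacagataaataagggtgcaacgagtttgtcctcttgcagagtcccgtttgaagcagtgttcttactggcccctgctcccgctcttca
Irf1: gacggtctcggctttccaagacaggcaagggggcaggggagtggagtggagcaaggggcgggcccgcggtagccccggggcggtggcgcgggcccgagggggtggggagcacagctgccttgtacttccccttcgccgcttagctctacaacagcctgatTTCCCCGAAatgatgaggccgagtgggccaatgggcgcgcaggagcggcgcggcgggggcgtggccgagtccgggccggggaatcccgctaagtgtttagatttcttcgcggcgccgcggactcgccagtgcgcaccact
H2-Eb1: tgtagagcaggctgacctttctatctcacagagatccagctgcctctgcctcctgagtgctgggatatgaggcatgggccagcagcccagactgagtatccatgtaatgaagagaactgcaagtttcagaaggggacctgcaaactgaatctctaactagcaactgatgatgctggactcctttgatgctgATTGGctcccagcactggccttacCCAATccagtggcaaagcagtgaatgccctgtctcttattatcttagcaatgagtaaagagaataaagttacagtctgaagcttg
H2-Aa: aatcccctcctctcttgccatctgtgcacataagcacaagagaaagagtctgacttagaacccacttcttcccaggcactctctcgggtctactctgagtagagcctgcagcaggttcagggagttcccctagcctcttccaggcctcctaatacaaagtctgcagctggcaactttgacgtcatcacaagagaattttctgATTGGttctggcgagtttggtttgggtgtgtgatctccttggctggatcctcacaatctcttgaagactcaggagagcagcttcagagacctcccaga
Gbp5 held 2 matches of the GAS type and 1 of the ISRE type, Irf1 1 of the GAS type, H2-Eb1 2 of CCAAT and H2-Aa 1. Each window shown was the gene's first one with a match, so a match was given by the choice. A second Irf1 window, chr11:53770223-53770522, held 0 matches of either interferon type.

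Over the whole promoter table, 8.30% of 32851 promoters held TTCNNNGAA, 3.44% the ISRE type and 37.4% CCAAT. Of 17 promoters of 14 interferon gamma response genes, 6 held the GAS type and 8 the ISRE type. CCAAT was in 7 of 9 promoters of 8 MHC class II genes. The window of Cxcl9 held neither interferon type, which says only that these letters were not in those 300 bases.

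Among the MHC class II genes, H2-Eb1 encodes a beta chain of the I-E molecule. Its level per mock barcode ran from 0 to 94.6 UMIs per 10000 with a median of 13.1, and per PTIR1 barcode from 0 to 61.5 with a median of 0.853. The ranges overlapped, but 81 of 94 mock and 31 of 55 PTIR1 barcodes had a UMI. Summed over barcodes, H2-Eb1 was at 2105 CPM in mock and 450.2 in PTIR1 barcodes, a ratio of 0.214 (0.195 to 0.235, exact conditional binomial interval). The I-A chains H2-Ab1 (2266 to 589 CPM, mock to PTIR1) and H2-Aa (2463 to 667) showed ratios of 0.260 and 0.271. The median per barcode of H2-Ab1 was 16.4 UMIs per 10000 in mock and 0.846 in PTIR1 barcodes. Cd74, the invariant chain that guards the peptide groove, was at 6043 and 1980 CPM, with barcode medians of 50.7 and 6.80 per 10000.

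Ciita, the co-activator of these genes, had few UMIs, at 51.3 CPM in 41 of 94 mock barcodes and 6.41 CPM in 5 of 55 PTIR1 barcodes, a ratio of 0.125 (0.0491 to 0.266). The peptide exchange proteins differed less evenly, with H2-DMb1 at 347 and 100.6 CPM and H2-DMa at 672 and 368. Ctss, the protease that trims Cd74, was the member nearest to no difference, at 2404 and 1811 CPM. The summed list ran from 8.05 to 812 UMIs per 10000 in mock barcodes, median 141, and from 4.41 to 354 in PTIR1 barcodes, median 38.8. At 2000 UMIs per barcode, H2-Ab1 was found in 72.3% (62.2 to 81.1) of mock and 36.4% (23.8 to 50.4) of PTIR1 C1q-high macrophages. B cells, which express it, had it in 96.1% and 97.6% of barcodes. Of the other types that express class II, B cell markers were at 30.1 and 93.3 CPM and conventional dendritic cell markers at 23.5 and 11 CPM in the C1q-high macrophages, with 50 and 12 UMIs, and Zbtb46 at 0 in the PTIR1 barcodes. The median of the class II list was -2.12 without the barcodes that had any UMI of conventional dendritic cell markers, which left 81 and 49, and -2.16 without those with 5 UMIs of B cell or other foreign markers.

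Cxcl9, the chemokine that draws Cxcr3-positive T cells, led the interferon gamma list and lies at 92321347 to 92328079 on chromosome 5. It ranged from 0 to 81.4 UMIs per 10000 in mock barcodes, median 2.19, and from 0 to 23 in PTIR1 barcodes, median 0. The sums were 980.4 and 157 CPM, a ratio of 0.161 (0.137 to 0.188), and 66 of 94 mock but 16 of 55 PTIR1 barcodes had a UMI. At equal depth the shares were 43.6% (33.4 to 54.2) and 10.9% (4.11 to 22.3), beside 6.37% and 0.952% in B cells, which marks the free RNA. Irf1, a transcription factor of the response, was at 144 and 44.8 CPM. The guanylate-binding proteins, which attack the vacuoles of intracellular microbes, included Gbp5 at 56.4 and 11.9 CPM and Gbp2b at 353 and 74.1. Serpina3g, a protease inhibitor, was at 251 and 43.9, and Iigp1, an immunity-related GTPase, at 295 and 75.9.

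The T cell ligand Cd274 (PD-L1) was at 83.7 and 30.2 CPM, and Cd40, the receptor for T cell help, at 41.4 and 9.15. Irf8, a factor of myeloid development, was the interferon gamma response gene within 1.5-fold, at 379.5 and 295.5 CPM. Of 10 genes for the receptor and its signalling 4 were past 1.5-fold lower, among them Irf1, Socs1 and Jak2, and 0 higher, with a median of -0.27. Irf1 and Socs1 are also in the interferon gamma response list, so the lists share genes. The receptor subunits were near equal, Ifngr1 at 120.4 and 112 CPM and Ifngr2 at 127 and 121, as was Jak1 at 143 and 136. Cxcl10 was lower by less, at 445 and 272 CPM, but 1 PTIR1 barcode held 49.2% of its PTIR1 UMIs. Without the top barcode of each library its log2 ratio was -1.47 in place of -0.71. For Gbp2, Gbp4 and Serpina3g the top PTIR1 barcode held 45.5%, 43.3% and 45.8% of the UMIs. Without the top barcodes each difference was larger. Each top barcode was taken off the gene's count and not off the total. A larger share lost in the PTIR1 barcodes therefore widens such a difference by itself. The median of all measured genes went from 0.02 to -0.05 in the same way.

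Interferon-induced genes of the type I kind were near equal. Of 16 measured genes outside the rule 0 were past 1.5-fold higher and 2 lower, Stat2 and Zbp1, with a median of 0.00. Isg15, a ubiquitin-like modifier, was at 126 and 145 CPM, and Irf7 at 180.1 and 165. The rule capped 4 genes of the same kind in every barcode, which limits how far this list could differ.

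**Figure D3:**
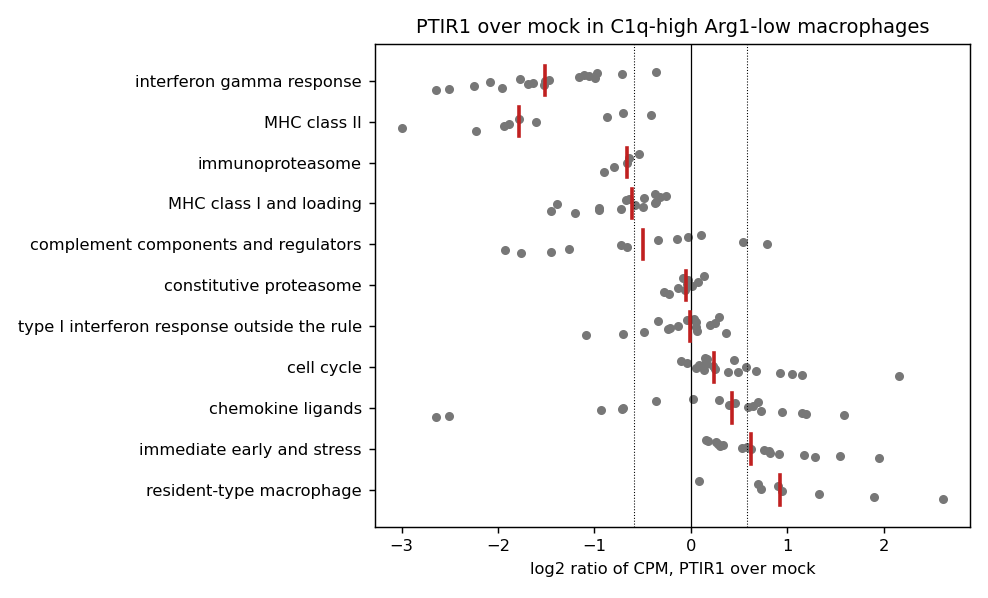
Each grey point is the log2 ratio of CPM, PTIR1 over mock (x axis), of a measured gene in the C1q-high macrophages, grouped by list (y axis); red bars are list medians and dotted lines mark 1.5-fold. The MHC class II and interferon gamma medians lie at -1.79 and -1.52, the constitutive proteasome and type I interferon medians at -0.05 and 0.00, and the resident-type median at 0.92.

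Genes of the immunoproteasome, the complex named in the series title, were lower together. Psmb8, a catalytic subunit encoded beside the MHC class II genes on chromosome 17, ranged from 0.666 to 18.9 UMIs per 10000 in mock barcodes, median 7.82, and from 0 to 11.4 in PTIR1 barcodes, median 4.03. Its sums were 855 and 458 CPM, a ratio of 0.535 (0.484 to 0.591). The other catalytic subunits Psmb9 and Psmb10 had ratios of 0.576 and 0.641, and the activator subunits Psme2 and Psme1 0.631 and 0.691. So 4 of 5 were past 1.5-fold lower and the list median was -0.66. Of 10 constitutive proteasome genes 0 were past 1.5-fold in either direction, with a median of -0.05, and Psmb5, the subunit that Psmb8 replaces, was at 220.1 and 214 CPM.

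MHC class I and its loading genes were lower too. Of 16 measured genes 8 were past 1.5-fold lower and 0 higher, with a median of -0.61. H2-K1, a classical heavy chain, was at 1623 and 983 CPM, and Tap1, the peptide transporter, at 179 and 92.4. H2-T23, the non-classical chain that NK receptors read, was at 510.2 and 222 CPM, and the class I co-activator Nlrc5 at 21.6 and 8.24. B2m, the shared light chain, was at 4037 and 3117, within 1.5-fold. Across the C1q-high macrophages of 1 library, the immunoproteasome list tracked the interferon gamma list, with Spearman's rho of 0.59 in 94 mock and 0.61 in 55 PTIR1 barcodes, a description over barcodes that share a library and differ in depth.

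Genes of resident-type macrophages were higher in the PTIR1 barcodes. Of 15 listed genes 8 were measured, 7 of them past 1.5-fold higher and 0 lower, with a median of 0.92. The list was not particular to the C1q-high macrophages, with medians over the Arg1-high gate of 0.05 in mock and 0.98 in PTIR1 barcodes. Its measured genes summed to 1915 and 3404 CPM here, against 5909 and 5988 for the 10 genes measured in the Arg1-high gate. Mrc1, the mannose receptor CD206, ranged from 0 to 40.2 UMIs per 10000 in mock barcodes, median 4.77, and from 0 to 42.6 in PTIR1 barcodes, median 6.51. The ranges overlapped almost fully, and the sums were 630.1 and 1041 CPM, a ratio of 1.65 (1.53 to 1.79). Folr2, a folate receptor of tissue macrophages, was at 60.7 and 153 CPM, with barcode medians of 0 and 0.908 per 10000. At equal depth Folr2 was found in 5.32% (1.75 to 12) of mock and 23.6% (13.2 to 37.0) of PTIR1 barcodes, against 0.680% or less of B cells.

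F13a1, a transglutaminase subunit, was at 81.4 and 303 CPM, in 25 of 94 and 29 of 55 barcodes. Pf4, a chemokine-like protein of platelets and some macrophages, was at 659 and 1270.0 CPM, and Cbr2, a carbonyl reductase, at 11.8 and 72.3. The 1 barcode with the most UMIs held between 8.98% (Folr2) and 22.8% (Cbr2) of the PTIR1 UMIs of these 5 genes, so none of the differences came from 1 barcode. Selenop, a selenium transport protein, was near equal at 377 and 401 CPM. Lyve1 and Vsig4, which mark some tissue macrophages, had 0 UMIs in all 149 barcodes, which allows a share of barcodes with a UMI of up to 3.19% in mock and 5.45% in PTIR1. This limit covers counting error only and does not bound the share of cells that express them. Timd4, a receptor for phosphatidylserine, had 28 UMIs in mock and 0 in PTIR1 barcodes.

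**Figure D4:**
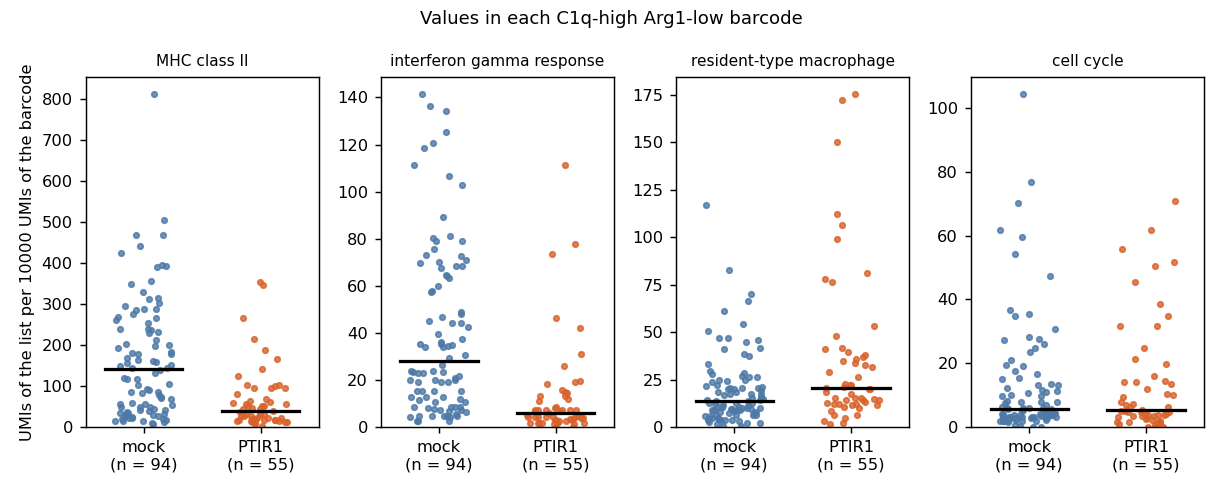
Each point is 1 C1q-high macrophage barcode, blue for 94 mock and orange for 55 PTIR1, and its height is the UMIs of a gene list per 10000 UMIs of the barcode; black bars are medians. The medians of MHC class II are 141 and 38.8, of the interferon gamma response 28.1 and 6.10, of the resident-type list 14.0 and 20.7 and of the cell cycle list 5.77 and 5.59, and in each panel the libraries overlap.

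Chemokine ligands split in 2 directions. Of 18 measured genes 8 were past 1.5-fold higher and 5 lower. Ccl3, an inflammatory chemokine, was at 129 and 388 CPM. Its relative Ccl4 was at 338 and 749. Cxcl2, which draws neutrophils, was at 987 and 2262, and Ccl7, which draws monocytes, at 1248 and 2061. The lower genes were Cxcl9, Cxcl10, Ccl5, Cxcl16 and Cxcl3. Ccl5 rested on 26 mock and 5 PTIR1 barcodes, at 62.5 and 11 CPM. For Cxcl3 1 mock barcode held 74.2% of the mock UMIs, and without the top barcode of each library the log2 ratio was 0.67 in place of -0.93. For Ccl8 1 PTIR1 barcode held 70.0% of the PTIR1 UMIs, and the log2 ratio was -0.36 with and -1.89 without the top barcodes, and 0.49 with the 3 bands of C1q share weighing the same. Ccl8, a ligand of several chemokine receptors, was found in 61 of 94 mock and 24 of 55 PTIR1 barcodes.

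Early-response genes were higher with PTIR1, 10 of 17 past 1.5-fold and 0 lower, with a median of 0.62. Egr1, an early transcription factor, was at 52.2 and 202 CPM, and Klf2, a factor that restrains inflammatory genes, at 205 and 499.6. In the other macrophage gates the list had medians of 0.63 (Arg1-high), 0.66 (low in both) and 0.69 (interferon-stimulated). It was thus higher with PTIR1 in every macrophage gate, and other cell types were not measured for it. A difference between libraries cannot be told apart from one between genotypes. Spp1 (osteopontin), a secreted matrix protein of tumour macrophages, ranged from 0 to 83.6 UMIs per 10000 in mock barcodes, median 2.53, and from 0 to 285 in PTIR1 barcodes, median 9.70. Its sums were 983 and 3193 CPM, a ratio of 3.25 (3.08 to 3.43), and Klf4, a transcription factor of macrophage differentiation, was at 85.1 and 279.

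Complement genes other than C1q were mostly lower or near equal. Of 12 measured genes 6 were past 1.5-fold lower and 1 higher, with a median of -0.50, which was -0.05 without barcodes with 5 UMIs of another cell type's markers. C3, the central component, was at 118 and 34.8 CPM and was found in 60 of 94 and 17 of 55 barcodes. C4b, which the protease complex bound to C1q cuts, was at 85.1 and 31.1, and C1ra, a protease of that complex, at 24.5 and 6.41. Among Fc receptors Fcgr4, which binds IgG2, was at 407 and 137 CPM, with barcode medians of 2.51 and 0.439 per 10000, while the inhibitory receptor Fcgr2b was at 594 and 545. Of these 6 receptors 1 was past 1.5-fold lower and 1 higher, Fcgrt, which recycles IgG, at 103 and 168.

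Genes of alternative activation, the state that interleukin 4 induces, were higher in 4 of 7 measured cases and lower in 0, with a median of 0.70. Those were Mrc1, Ccl24 (61.6 and 99.7 CPM), Chil3 and Clec10a, the last pair with 75.4% and 49.0% of the PTIR1 UMIs in 1 barcode. In the other macrophage gates this list had medians of 0.68 (Arg1-high), 0.84 (low in both) and 0.56 (interferon-stimulated). It was thus higher with PTIR1 in every macrophage gate and not only in the C1q-high macrophages. Other cell types were not measured for it. The cell cycle list had 5 of 20 genes past 1.5-fold higher and 0 lower, with a median of 0.24 (-0.25 to 0.68 over the alternative settings below). Its higher genes were Rrm2, Tyms, Mcm6, Ccna2 and Tpx2, of which Tpx2, a spindle assembly factor, was at 29.6 and 65.9 CPM. Genes of dead cell uptake were 3 higher and 1 lower of 14, with a median of 0.06. The lower gene was Cd36, and the higher ones were Mrc1, Gas6 and Pros1, the last pair being bridging ligands of phosphatidylserine. Ligands and receptors for T cells were 0 higher and 3 lower of 14 (Slamf8, Cd40 and Cd274), with a median of -0.28.

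The remaining lists held few genes past 1.5-fold. Macrophage identity genes were 0 higher and 1 lower of 12, with a median of -0.32, the lower one being Aif1, an actin-binding protein, at 895 and 488 CPM. Macrophage transcription factors were 1 higher (Klf4) and 1 lower (Tfec) of 16, and chemokine receptors 0 and 0 of 6. Monocyte markers were 0 higher and 2 lower of 6, Ly6c2 at 382 and 209 CPM and F10 at 85.1 and 33.9, with a median of 0.01. Glycolysis genes were 0 higher and 1 lower (Hk2) of 12, and hypoxia genes 1 higher (Hilpda) and 1 lower (Bnip3) of 8. Osteoclast-type genes were 0 higher and 1 lower (Acp5) of 4.

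Several of the genes ranked highest in the PTIR1 barcodes rested on few barcodes. Of the 12 genes ranked first as higher, 7 had more than 50% of their PTIR1 UMIs in 1 barcode, and 4 barcodes accounted for these 7. Dcn, a fibroblast proteoglycan, was at 3.76 and 106 CPM with 84.5% in 1 barcode, Lgals7, an epithelial galectin, at 8.46 and 115 with 89.7%, and Igfbp6 at 7.52 and 94.2 with 74.8%. S100a9, a calcium-binding protein of neutrophils and monocytes, was at 105 and 541 with 39.4%. Dcn and S100a9 belong to the fibroblast and neutrophil lists above. Without the top barcode of each library the log2 ratio of Dcn was 2.55 in place of 4.82, that of Lgals7 0.57 in place of 3.77 and that of Igfbp6 1.96 in place of 3.65. Gja1, a gap junction protein (4.23 and 49.4 CPM), and Hbegf, a growth factor (6.11 and 40.3), were spread more widely, with 16.7% and 25% in the top barcode. Of the 12 genes ranked first as lower, 1 had more than 50% of its PTIR1 UMIs in 1 barcode. That gene, Ccl5, had a log2 ratio of -3.31 in place of -2.51 without the top barcodes. These held 66.7% of its PTIR1 and 42.1% of its mock UMIs, and a larger share taken from the PTIR1 count lowers the ratio by itself.

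Monocyte markers were lower where the C1q share was higher, at 2783, 2631 and 950.0 CPM in the mock bands of 0.2 to 0.4%, 0.4 to 0.8% and at least 0.8%, and at 2597, 1641 and 832 in the PTIR1 bands. Spearman's rho between C1q share and monocyte markers was -0.56 over 94 mock and -0.57 over 55 PTIR1 barcodes. C1q share chose these barcodes and barcodes of 1 library are not replicates, so bands and rho values are a description. MHC class II was not ordered this way in the mock bands, at 20358, 12392 and 16905 CPM, and was at 8595, 5887 and 4919 in the PTIR1 bands. It was lower with PTIR1 in each band. The cell cycle list was at 578, 704 and 1820.0 CPM in the mock bands and at 1005, 2072 and 1931 in the PTIR1 bands. Early-response genes were at 9481, 6236 and 3728 CPM in the mock bands and 8866, 6647 and 7713 in the PTIR1 bands, so the libraries differed by more than 1.5-fold only where C1q was at least 0.8%. MHC class II tracked the interferon gamma list within each library, with rho of 0.42 and 0.34.

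Each macrophage gate gave its own ratio of PTIR1 over mock, from the same 2 libraries. The interferon gamma list was lower in every gate, with medians of -0.83 (Arg1-high), -1.49 (low in both) and -0.52 (interferon-stimulated) beside -1.52 in the C1q-high macrophages. The immunoproteasome medians were -0.49, -0.71 and -0.35 beside -0.66. MHC class II and the resident-type list stood further apart. The MHC class II medians in the other gates were -0.52, -0.28 and -0.60, against -1.79. Conventional dendritic cells also express class II. Their markers were at 46.7 CPM in mock and 85.2 in PTIR1 barcodes of the gate low in both. In the Arg1-high gate they were at 15.1 and 20.6, and in the interferon-stimulated gate at 5.65 and 38.35. Their part in the class II values of these gates was not tested. The resident-type medians were 0.01, 0.11 and -0.07, against 0.92. Each median is over the genes measured in that gate, so the sets of genes differ. For the resident-type list these were 10, 8 and 6 genes, against 8. Of them 3, 2 and 1 were past 1.5-fold higher and 1, 1 and 0 lower, against 7 and 0. Over all measured genes, 571 were higher and 270 lower of 10358 in the Arg1-high gate. These were 785 and 456 of 10607 in the gate low in both, and 376 and 360 of 6843 in the interferon-stimulated gate. In the C1q-high macrophages they were 438 and 420 of 6337. H2-Eb1 had log2 ratios of -0.56, -0.18 and -0.61 in those gates and -2.23 in the C1q-high macrophages, with counting intervals that did not meet. F13a1 was at -0.07, 0.13 and -0.12, against 1.90, and Spp1 at 0.28, 0.59 and 0.17, against 1.70. With 1 library per genotype these differences between gates were not tested.

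**Figure D5:**
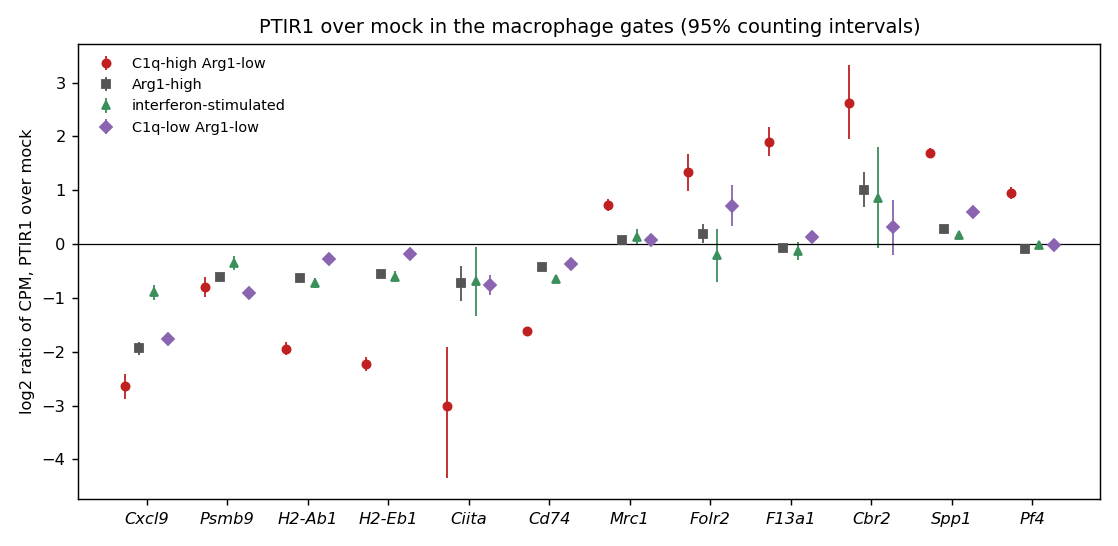
Points are log2 ratios of CPM, PTIR1 over mock (y axis), for 12 genes (x axis) in the C1q-high macrophages (red circles) and 3 other macrophage gates, with 95% intervals for counting error. H2-Ab1 lies at -1.94 in the C1q-high macrophages and from -0.72 to -0.28 elsewhere, F13a1 at 1.90 and from -0.12 to 0.13, while Cxcl9 is below 0 in every gate.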

How the data were processed

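Each deposited matrix holds raw UMI counts from Cell Ranger 5.0.0, per the file headers. Seurat 3.2.3 and mm10 are named in the submitters' processing notes. Which gene annotation the authors used is not given. Filters are those of the opening paragraph. UMIs were summed over barcodes and divided by their total (2126589 mock and 1092932 PTIR1 UMIs in C1q-high macrophages) to give CPM. Genes with at least 50 UMIs were measured. Levels carry exact Poisson, ratios exact conditional binomial and shares exact binomial (Clopper-Pearson) intervals at 95%, and floors are 3 counts. UMI intervals and floors cover counting error only. With 1 library per group no significance test was run.

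Ranking used the bound of a ratio's interval closer to 1 and took 12 genes per direction, detected in at least 5% of barcodes of a library, without the genes of the rule, unnamed models and Xist. Against another gate the ranking took the 10 in each direction by the smaller of both libraries' log2 ratios. List members were ranked alike, up to 4 per list, and others are described by role. Members and lists were chosen with earlier results of these data known. B cells had at least 3 UMIs of B cell markers (Cd79a and Ms4a1 among them) and none of Csf1r, Adgre1 or Cd3e. Doublets were kept in the main values and scored with Scrublet for an alternative. In all, 27 gene lists and 14 marker lists were used, and Clec7a, Ero1a and Mx2 had no row. All 360 list genes with a row carried the same symbol in GENCODE vM21, whose build is that of the deposited files. RefSeq promoters covered 27025 symbols. On Poisson counts simulated for PTIR1 over mock in C1q-high macrophages (6347 genes, 200 changed), intervals covered 96.2% of unchanged and 96.5% of changed genes. These counts were drawn as the interval assumes, so such coverage was fixed in advance and checks only the calculation. The real UMIs were clumped in single barcodes for some genes, so the coverage does not describe them. Some list genes are not reported here. Software was scanpy 1.11.5 (with its Scrublet), pandas 2.3.3, scipy 1.17.1, numpy 2.4.6 and matplotlib 3.10.9 under Python 3.11.15.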

Additional observations from a re-analysis of the deposited data

Results flagged for a closer look

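Some genes had ratios of PTIR1 over mock that pointed one way in the C1q-high macrophages and the other way in another macrophage gate, past 1.5-fold in both. None of these differences was tested, since each genotype had 1 library. Cxcl3, a neutrophil attractant, had a log2 ratio of -0.93 in the C1q-high macrophages and of 0.80 in the Arg1-high, 0.99 in the interferon-stimulated and 2.30 in the C1q-low Arg1-low gate. Without its top barcode in each library it was 0.67 in the C1q-high macrophages, the same direction as elsewhere. Thbs1, a matrix glycoprotein, was at -1.64 against 0.88 in the Arg1-high and 0.98 in the C1q-low Arg1-low gate, and at 0.29 without barcodes with 5 UMIs of another cell type's markers. Tnf, an inflammatory cytokine, was at -0.75 against 0.78 in the Arg1-high gate. The complement protease C1ra was at -1.93 against 0.71 in the C1q-low Arg1-low gate.

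Genes higher in the C1q-high macrophages and lower elsewhere were Syngr1, Rrm2 and Mcm6. Syngr1 was at 1.35 against -1.93 in the interferon-stimulated and -1.13 in the C1q-low Arg1-low gate. Rrm2, a subunit of ribonucleotide reductase, was at 2.16 against -0.72 in the C1q-low Arg1-low gate, and Mcm6, part of the replicative helicase, at 0.68 against -0.84 in the Arg1-high gate.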

How the results depend on the processing

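Settings tried were 21 planned ones and 3 chosen after seeing the data (each gene without its top barcode, without barcodes with a UMI of conventional dendritic cell markers, and without barcodes with 5 UMIs of another cell type's markers). Of 239 values of the main results under them, 204 stayed within set limits and 35 moved. Of 1486 values of other results 1251 stayed, 230 moved and 5 reversed. The limit was the counting interval for a single gene or a share, and 1.5 times for counts of genes and ratios over a gate. For a list median it was the median distance from the middle to an end of its genes' own intervals. That distance is not the counting error of the median. The MHC class II median was -2.04 with a C1q limit of 0.4% and -2.07 without the highest doublet scores. It was -2.16 without barcodes with 5 UMIs of other markers and -2.12 without those with dendritic cell markers. It was -1.57 with each barcode weighing the same and -1.48 at 2000 UMIs per barcode. Without top barcodes it was -1.96, while the median of all measured genes moved from 0.02 to -0.05. The median of the early-response list was 0.82 with the C1q limit at 0.4%, 0.86 with an Arg1 limit of 0.02%, 1.04 without barcodes with 5 such UMIs, 0.89 without those with dendritic cell markers and 0.35 with the 3 C1q bands weighing the same. The chemokine median was 0.63 with the Arg1 limit at 0.02% and 0.22 with an interferon limit of 0.05%. At 2000 UMIs the resident-type median was 0.55 over 3 measured genes and the immunoproteasome median -0.87. Dropping barcodes with 2 UMIs of another cell type's markers left 3 mock and 4 PTIR1 barcodes. That filter counted Bst2, which macrophages also express, and the filter at 5 UMIs did not. The plasmacytoid list, with Bst2, reached 2 UMIs in 84 of 94 mock and 40 of 55 PTIR1 barcodes. The medians after the filter at 2 UMIs were -3.85 (MHC class II), -0.88 (MHC class I), 2.08 (chemokines) and 2.47 (early response). The log2 ratio of the pool share was then 0.91. Over all passing barcodes that ratio was -0.90, from -0.28. Genes past 1.5-fold, 438 higher and 420 lower, were 28 and 29 after the filter at 2 UMIs and 60 and 82 at 2000 UMIs. They were 943 and 791 with at least 20 UMIs per gene and 72 and 98 with at least 200, as the number of measured genes changed. The cell cycle median over the Arg1-high gate (smaller of both libraries) was 2.79 with an Arg1 limit of 0.1%, and with each barcode weighing the same it was 2.70 over the interferon-stimulated and 2.55 over the C1q-low Arg1-low gate. Without thinning, 90.4% of mock and 70.9% of PTIR1 barcodes had an H2-Ab1 UMI. Among values past 1.5-fold, direction reversed for Hmox1 (-0.24 with the C1q limit at 0.4% and -0.44 with the Arg1 limit at 0.02%), Cxcl3 (0.86 with the Arg1 limit at 0.02% and 0.67 without top barcodes) and Thbs1 (0.29 without barcodes with 5 such UMIs). Within 1.5-fold, Ccl8 changed sign, from -0.36 to 0.49 with the 3 C1q bands weighing the same. From the lowest to the highest band Ccl8 was at 64.6, 546 and 1701 CPM in mock barcodes. In PTIR1 barcodes it was at 2781, 27.8 and 428.5, with its top barcode in the lowest band. Apart from the top barcodes the cause was not tested. Some list medians within 1.5-fold also changed sign under a setting. Among them, the cell cycle median reached -0.25, macrophage identity 0.36, Fc receptors 0.17, macrophage transcription factors 4.55 and monocyte markers -0.59. No paired analysis was possible because each genotype had 1 library.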

Other observations

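Genes of lipid handling did not move as a group in the C1q-high macrophages. Of 18 measured genes of the lipid-associated list 2 were past 1.5-fold higher with PTIR1, Spp1 and Syngr1, and 3 lower, with a median of -0.05. The lower genes were the cholesterol exporters Abca1, at 71.5 and 38.4 CPM in the mock and PTIR1 barcodes, and Abcg1, at 81.8 and 40.3, and the fatty acid binding protein Fabp5, at 203 and 122. For Fabp5 1 PTIR1 barcode held 50.4% of the PTIR1 UMIs. Trem2, the lipid receptor of such macrophages, was at 372 and 429 CPM, and Apoe, the lipoprotein carrier, at 5624 and 4480. Cd36, a fatty acid and scavenger receptor, was at 71.0 and 24.7 CPM, found in 41 of 94 and 9 of 55 barcodes.

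Hmox1, the haem-degrading enzyme, was at 178 and 378 CPM, but 1 barcode held 49.9% of the mock and another 55.7% of the PTIR1 UMIs. Its log2 ratio of 1.08 was -0.24 with a C1q limit of 0.4% and -0.44 with an Arg1 limit of 0.02%. The iron and haem list had 1 of 8 genes past 1.5-fold higher, Hmox1, and 0 lower, with a median of 0.11. Cytokines and inflammatory mediators were 1 higher and 2 lower of 10, with a median of -0.07. Osm, a cytokine of the interleukin 6 family, was at 58.8 and 183 CPM, in 40 of 94 and 31 of 55 barcodes. Il18bp, the secreted inhibitor of interleukin 18, was at 78.1 and 16.5, and Tnf at 50.8 and 30.2. Growth factor, matrix and protease genes were 2 higher (Hbegf and Fn1) and 3 lower (Thbs1, Mmp12 and Mmp13) of 11, with a median of 0.06. Fn1 (fibronectin) was at 377 and 642, and Thbs1 at 174.5 and 55.8, a log2 ratio of -1.64 that was 0.29 without barcodes with 5 UMIs of another cell type's markers.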
